A study of Homo sapiens with 6 samples.

Results

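Pancreatic ductal adenocarcinoma (PDAC) recurrently loses or activates a small set of genes, and 8 of them were taken here as driver genes: SMAD4, CDKN2A, CDKN2B, TGFBR2, ARID1A, GNAS, MYC and RNF43. They were chosen by name as PDAC drivers, with earlier results of these data known. Of these 8 genes, 6 had a value among the 30735 genes of the tables analysed here, and 5 were high enough to be tested, with at least 1 RPKM (reads per kb of exon, scaled to the reads of the library) in at least 3 samples. No row analysed here mapped to CDKN2A or CDKN2B, so both were not analysed here, and no level, not even 0, was assigned to them. Every gene that was listed had a value above 0 in at least 1 sample.

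The cells were PANC-1, an established line from a human PDAC, transfected with CD73 siRNA (3 samples) or with a negative control (3 samples) by a lipid reagent, in a medium without serum. The paper's methods describe culture of PANC-1 with fetal bovine serum and name no medium for the transfection. CD73 is the cell surface enzyme encoded by NT5E that makes adenosine. The study presents the samples as separate knockdown experiments in a single cell line, numbered 1 to 3 in each group. The paper's methods name a single CD73 siRNA product and print no sequence for it. Whether each number stands for another siRNA sequence is not given in the sources used here, and p-values measure only the spread between these samples.

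The drivers act at different levels of the cell. TGFBR2 is the receptor that binds TGF-beta and starts its signal, and SMAD4 is the common partner with which the receptor-activated SMADs enter the nucleus. ARID1A is a DNA-binding subunit of the SWI/SNF complex, which moves nucleosomes. CDKN2A and CDKN2B lie side by side at 9p21 and encode INK4 inhibitors of the cyclin D kinases CDK4 and CDK6, and deletions there often reach the neighbouring MTAP gene. MYC is a transcription factor that drives growth and ribosome synthesis as a dimer with MAX. GNAS encodes the stimulatory G protein subunit that links receptors, adenosine receptors among them, to cAMP production. RNF43 is a membrane ubiquitin ligase that removes WNT receptors from the cell surface. Loss of SMAD4, TGFBR2, ARID1A, CDKN2A or RNF43 is known from pancreatic tumours, whereas GNAS and MYC are activated, GNAS mainly in cystic precursor lesions.

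Library totals read from the steps in the values lay between 15009113 and 16836207 per sample. NT5E was at 3.36, 6.85 and 8.22 RPKM in the CD73 siRNA samples and at 13.96, 13.9 and 17.1 RPKM in the negative controls, so every knockdown sample lay below every control. Its log2 difference was -1.23 (SE 0.258, adjusted p = 0.303, limma), and -0.90 without CD73 siRNA replicate 1. Of the ductal and epithelial markers KRT7, KRT8, KRT18, KRT19 and EPCAM, 4 reached 1 RPKM in at least 1 sample and KRT7 did not. Their summed level was lower with CD73 siRNA (71.0 to 101 RPKM) than in controls (134 to 252 RPKM). KRT8 and KRT18, which made up most of this sum, were lower in every knockdown sample than in every control, as in 8.07% of all tested genes. KRT7, KRT19 and EPCAM overlapped between groups. The part of these markers in the results was not tested. The mesenchymal markers VIM and CDH2 were at 183 to 263 and 4.12 to 4.93 RPKM over the 6 samples, with overlapping groups. Leukocyte, endothelial and islet markers with a value stayed below 1 RPKM in all 6 samples. The leukocyte marker CD3E and the acinar markers PRSS1, CPA1 and CELA3A were not analysed here. Of the fibroblast markers COL1A1 was at 8.97 to 19.1 RPKM, while COL1A2 and LUM stayed below 0.05 RPKM and DCN was not analysed here. The call used throughout is an unadjusted p below 0.01, and 392 of the 12527 tested genes met it (3.13%), of which 228 were higher and 164 lower with CD73 siRNA. An adjusted p below 0.05 was met by 1 gene (0.00798%). A fit that kept the replicate number as a block called 948 genes (7.57%, with 4.27% higher and 3.3% lower). The count of 392 fell to 110 when CD73 siRNA replicate 1 was left out, to 181 when negative control replicate 1 was left out and to 254 when negative control replicate 3 was left out, and it rose to 791 when negative control replicate 2 was left out.

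In the control cells the 6 drivers differed widely in level. MYC had the highest level, 54.1 ± 6.43 RPKM (SD, n = 3), above that of 97.8% of the listed genes. GNAS followed at 31.6 ± 3.94 RPKM, then ARID1A at 15.2 ± 0.708 RPKM and TGFBR2 at 14.4 ± 3.07 RPKM (SD, n = 3 each). SMAD4 was at 3.598 ± 0.0797 RPKM and RNF43 at 0.0146 ± 0.0135 RPKM (SD, n = 3 each). ARID1A and TGFBR2 overlapped in their control values and could not be ordered, while every other pair of neighbours in this order was apart in all control samples. RPKM is a level per kb of exon, so these levels can be set beside each other, but it averages over all annotated exons of a gene. GNAS and SMAD4 have 13320 and 13123 exon bases in the annotation, and a transcript that uses few of them is understated. MYC has 3001 exon bases. Control samples held 5654 to 7683 reads of GNAS and 2105 to 2748 reads of MYC. The order of MYC and GNAS in RPKM therefore need not be that of their transcripts.

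**Figure D1:**
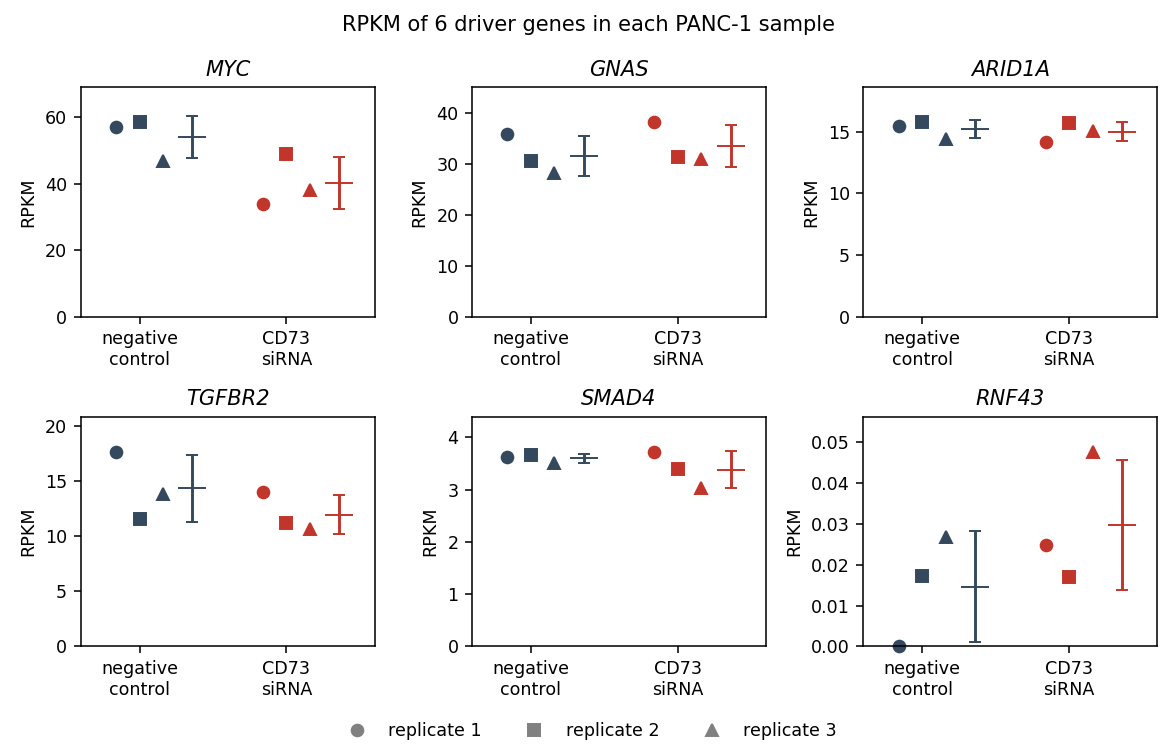
RPKM (linear axes from 0) of the 6 driver genes in each negative control and CD73 siRNA sample, with marker shapes for the replicate number and a bar for the mean ± SD of 3 samples. The groups overlap in all 6 genes, MYC has a mean of 54.1 RPKM in controls and 40.4 RPKM after CD73 siRNA, and RNF43 stays below 0.05 RPKM.

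None of the 5 tested drivers passed an unadjusted p of 0.01 in the comparison of CD73 siRNA with negative control, against a background of 3.13% of all genes, and none passed an adjusted p of 0.05, as 0.00798% of all genes did. At an unadjusted p below 0.05 the count was 1 of 5, MYC, against 12.1% of all genes. The knockdown and control values overlapped in all 6 genes with values, whereas over all tested genes 10.3% had every CD73 siRNA sample above every control and 8.07% had every one below. In an exact two-sided permutation test of single genes, whose smallest possible p is 0.1 for this design, MYC gave p = 0.2 and the other 5 genes gave p = 0.3 to 0.6.

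MYC showed the largest difference of the 5 tested drivers. After CD73 siRNA it stood at 33.8, 49.1 and 38.2 RPKM in replicates 1, 2 and 3, against 57.1, 58.5 and 46.7 RPKM in the controls of the same numbers. Knockdown replicate 2 lay above control replicate 3, which is where the groups overlapped. The knockdown mean, 40.4 ± 7.83 RPKM, was 74.6% of the control mean of 54.1 ± 6.43 RPKM (SD, n = 3 each). The log2 difference was -0.42 (SE 0.154, 95% interval -0.78 to -0.07), with an adjusted p of 0.361 (limma). Behind each value stood 1633 to 2748 reads. In bulk RNA, less MYC RNA per cell and fewer cells with MYC RNA cannot be told apart.

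Within pairs 1, 2 and 3 the log2 difference of MYC was -0.74, -0.25 and -0.28, so it was lower in 3 of 3 pairs. With the replicate number as a block, MYC kept this difference of -0.42 with an SE of 0.112 and passed the unadjusted threshold, 1 of 5 drivers against 7.57% of all genes, and its adjusted p was 0.123 (limma). Over the 11 alternatives the adjusted p ranged from 0.123 to 0.797. Leaving out CD73 siRNA replicate 2 also took MYC past the threshold, with a log2 difference of -0.57.

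**Figure D2:**
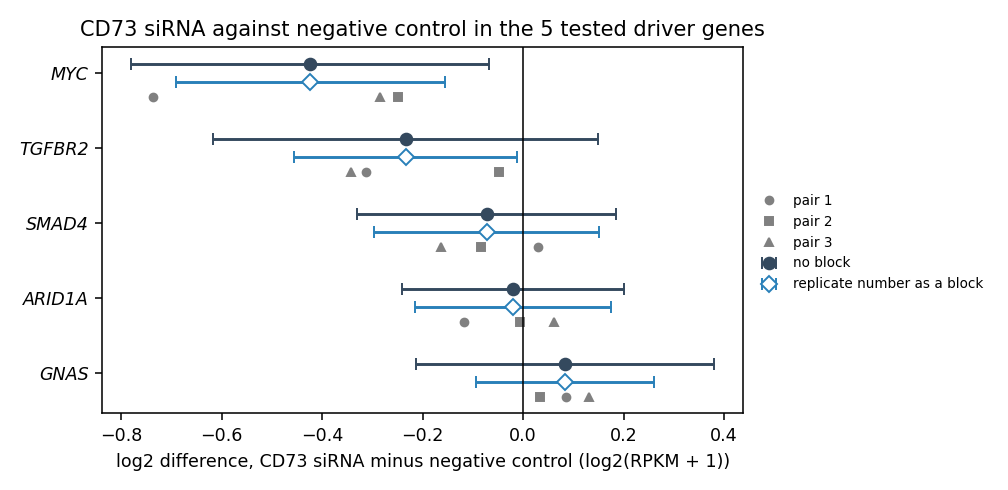
Log2 difference (CD73 siRNA minus negative control, on log2(RPKM + 1)) of the 5 tested driver genes with its 95% interval, without a block (filled circles) and in the fit blocked by replicate number (open diamonds), and the difference within each numbered pair (grey). The interval of MYC lies below 0 in both fits, at -0.78 to -0.07 without the block, and those of SMAD4, ARID1A and GNAS include 0 in both.

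TGFBR2, the TGF-beta binding receptor, was at 14.04, 11.2 and 10.7 RPKM after CD73 siRNA and at 17.7, 11.6 and 13.8 RPKM in the controls. Replicate 1 was the highest in either group, and knockdown replicate 1 lay above controls 2 and 3. The log2 difference was -0.23 (SE 0.166, 95% interval -0.62 to 0.15, adjusted p = 0.596, limma). It was negative in 3 of 3 numbered pairs, at -0.31, -0.05 and -0.34. Between 830 and 1334 reads stood behind these values. With the block the interval narrowed to -0.46 to -0.01 and the adjusted p was 0.199 (limma).

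SMAD4 was at 3.72, 3.40 and 3.02 RPKM after CD73 siRNA and at 3.62, 3.66 and 3.51 RPKM in the controls, from 668 to 785 reads. The controls differed from each other by little, with an SD of 2.22% of their mean, and 1 knockdown sample lay above all of them. The log2 difference was -0.07 (SE 0.112, 95% interval -0.33 to 0.18, adjusted p = 0.828, limma). In the annotation 7.37% of the SMAD4 exon bases are shared with 1 other gene on the same strand, and how the authors counted reads there is not given in the sources used here.

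ARID1A was the steadiest of the drivers between groups. Its level was 14.2, 15.7 and 15.1 RPKM after CD73 siRNA and 15.4, 15.8 and 14.4 RPKM in the controls, from about 3442 to 4042 reads. Knockdown replicate 1 lay just below the lowest control, and the other knockdown samples lay inside the control range. The log2 difference was -0.02 (SE 0.0959, adjusted p = 0.950, limma), and its 95% interval of -0.24 to 0.20 bounds what these samples could show. Its sign was not fixed, since it was 0.01 with the values scaled to a common sum.

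GNAS was at 38.2, 31.4 and 31.1 RPKM after CD73 siRNA and at 35.96, 30.6 and 28.3 RPKM in the controls. Replicate 1 was the highest in both groups, and the knockdown sample was the higher one in 3 of 3 numbered pairs, by 0.09, 0.03 and 0.13 on the log2 scale. The log2 difference of 0.08 (SE 0.128, 95% interval -0.21 to 0.38, adjusted p = 0.828, limma) was smaller than the spread between replicates, and without CD73 siRNA replicate 1 it was -0.01. With 5654 to 8182 reads per sample GNAS was the most deeply covered driver. The value sums all transcripts of the locus, which starts RNAs at several promoters, and 8.73% of its exon bases lie opposite exons of 2 antisense genes, whose reads cannot be told apart from its own without strand.

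RNF43 was near 0. It had 3, 2 and 6 reads after CD73 siRNA (0.0249, 0.0169 and 0.0475 RPKM) and 0, 2 and 3 reads in the controls (0, 0.0172 and 0.0266 RPKM). The 0 of control replicate 1 allows up to 3 reads, or 0.0249 RPKM. Summed over the groups there were 11 reads (95% Poisson interval 5.49 to 19.7) and 5 reads (1.62 to 11.7), intervals that overlap and cover counting error only, so no difference was detectable at this depth. In the annotation 73.9% of the RNF43 exon bases are shared with exons of 3 other genes, and 59.5% of all its exon bases are shared on the same strand. Reads in shared exons may have been left out when reads were counted, and the part this has in the low level was not tested.

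For each tested driver, the 2 genes with the closest pattern over the 6 samples were found by the root-mean-square difference of the centred log2(RPKM + 1) values. They were MAML1 and COPS7B for MYC (0.0360 and 0.0518), and DNAJC27 and SCAND1 for GNAS (0.0228 and 0.0265). For TGFBR2 the closest was BLCAP (0.0359). For SMAD4 they were NAA30 and NR2C1 (0.0160 and 0.0180), and for ARID1A SNHG7 and DIDO1 (0.0204 and 0.0208). Such closeness is a description of 6 samples chosen among 12527 genes.

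Around CDKN2A and CDKN2B, levels could be read for the neighbouring genes on the short arm of chromosome 9. In GENCODE release 29 (GRCh38), CDKN2A spans 21967753 to 21995301 and CDKN2B spans 22002903 to 22009363, both on the reverse strand. MTAP, which recycles methylthioadenosine and begins at 21802543, had 5, 3 and 8 reads in the controls and 6, 6 and 10 reads after CD73 siRNA, or 0.0132 to 0.0406 RPKM over the 6 samples. On the side of MTAP away from CDKN2A, KLHL9 (21329671 to 21335380) was at 7.17 ± 0.484 RPKM in the controls (SD, n = 3). On the other side, DMRTA1 (22446841 to 22455740) was at 1.34 ± 0.243 RPKM (SD, n = 3). Both flanking genes had at least 87 reads in every sample. The antisense gene CDKN2B-AS1, which lies between them and overlaps the locus, was not analysed here.

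Of 29 genes listed along this part of chromosome 9, CDKN2A and CDKN2B included, 20 had a value and 14 had a control mean of at least 1 RPKM. The level did not fall evenly toward the INK4 genes. MIR31HG, a noncoding RNA gene between KLHL9 and MTAP, was at 1.17, 2.77 and 1.79 RPKM in the controls, and HACD4, farther out than KLHL9, was at 0.0261 ± 0.0225 RPKM (SD, n = 3). None of the 14 neighbours tested was past an unadjusted p of 0.01 after CD73 siRNA, against 3.13% of all genes.

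**Figure D3:**
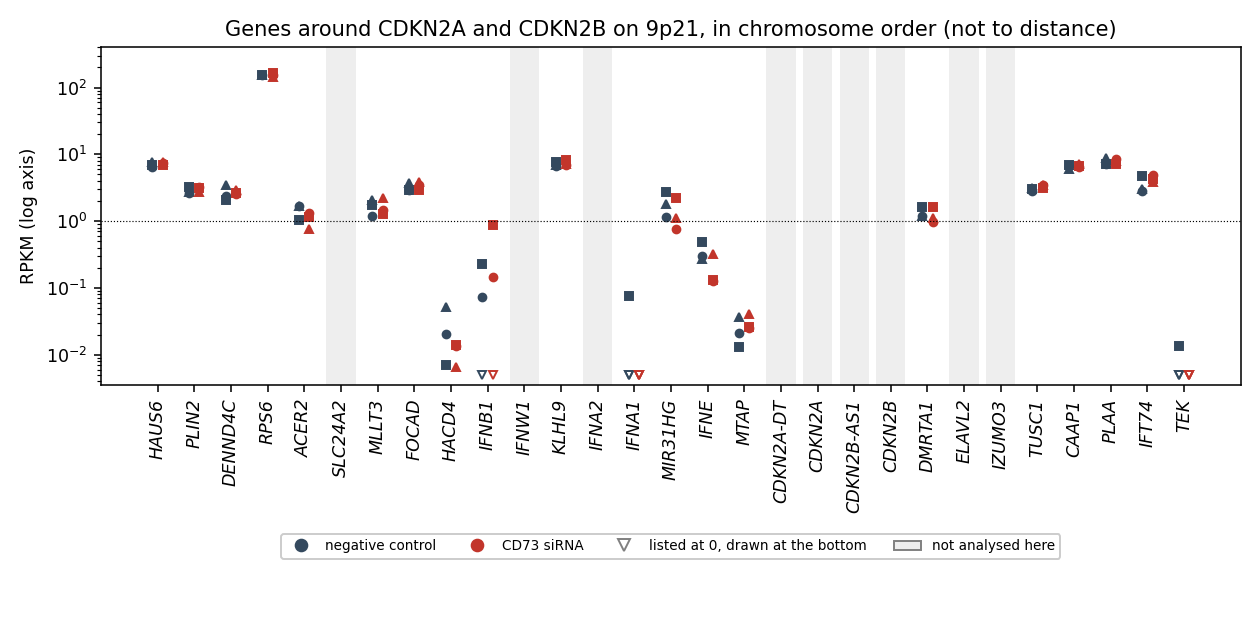
RPKM (log axis, dotted line at 1 RPKM) of genes around CDKN2A and CDKN2B in chromosome order, with equal spacing in place of distance, in negative control (dark) and CD73 siRNA (red) samples. Open triangles at the bottom are listed at 0 and grey columns were not analysed here. MTAP lies at 0.0132 to 0.0406 RPKM, and KLHL9 and DMRTA1 on its either side have control means of 7.17 and 1.34 RPKM.

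Other genes of the CDKN2A and CDKN2B pathway could be measured. Of 20 genes of the INK4, CDK4/6 and RB list, 17 were tested, 1 rose and 3 fell at an unadjusted p below 0.01, against 1.82% and 1.31% of all genes. The related inhibitors CDKN2C and CDKN2D had control levels of 14.2 ± 1.33 and 5.33 ± 1.14 RPKM (SD, n = 3 each), with log2 differences of 0.11 and 0.32 that did not pass. CDK4, a kinase that INK4 proteins bind, was at 28.0 ± 3.41 RPKM in the controls (SD, n = 3) with overlapping groups. CDK6, the other such kinase, was at 11.5, 11.9 and 13.4 RPKM after CD73 siRNA and at 4.79, 8.43 and 10.3 RPKM in the controls, a log2 difference of 0.64 (SE 0.227, adjusted p = 0.357, limma) that passed the unadjusted threshold with the block only. The genes that fell were CCND1 (cyclin D1), CDKN1A (p21) and CDKN1B (p27), and the one that rose was E2F1, a factor of S phase entry. CCND1 was at 75.5, 76.9 and 72.1 RPKM after CD73 siRNA and at 180.2, 104 and 129 RPKM in the controls, a log2 difference of -0.83 (SE 0.183, adjusted p = 0.303, limma). CDKN1A was at 8.14, 9.79 and 8.14 RPKM against 20.3, 11.95 and 16.2 RPKM, a log2 difference of -0.80 (SE 0.181). CDKN1B, at 23.9, 19.5 and 18.3 RPKM in the controls, was at 15.3, 14.6 and 14.7 RPKM after CD73 siRNA, a log2 difference of -0.43 (SE 0.118, adjusted p = 0.305, limma). E2F1 was at 42.1, 39.9 and 43.9 RPKM after CD73 siRNA and at 26.3, 34.8 and 29.999 RPKM in the controls, a log2 difference of 0.46 (SE 0.119, adjusted p = 0.303, limma). With the block 2 genes of the list rose and 4 fell, against 4.27% and 3.3% of all genes, CDK6 and the retinoblastoma gene RB1 being added to the 4 above. RB1 was at 7.86, 11.7 and 11.3 RPKM after CD73 siRNA and at 13.1, 16.5 and 14.7 RPKM in the controls, a log2 difference of -0.50 (SE 0.159, adjusted p = 0.342, limma). Over the whole list 3 of 17 genes had every knockdown sample above every control and 6 had every one below, against 10.3% and 8.07% of all genes. Without CD73 siRNA replicate 1 the list held 1 called gene, and without CD73 siRNA replicate 3 or negative control replicate 1 it held 2. Over all genes these settings called 110, 271 and 181.

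Around TGFBR2 and SMAD4, 26 of the 29 genes of the TGF-beta and SMAD list were tested, 0 rose and 1 fell (1.31% of all genes fell), with a median log2 difference of -0.15 against 0.01 over all genes. The gene that fell was SMURF2, a ubiquitin ligase that acts on SMADs and the TGF-beta receptor. It was at 6.48, 8.69 and 6.94 RPKM after CD73 siRNA and at 12.1, 10.8 and 11.9 RPKM in the controls, a log2 difference of -0.60 (SE 0.125, adjusted p = 0.303, limma). With the replicate number as a block, 4 genes of the list fell, against 3.3% of all genes, among them SMURF2, the co-receptor gene ENG and the TGF-beta target gene CCN2. The number called was 2 when CD73 siRNA replicate 2 or 3, or negative control replicate 2 or 3, was left out. Over all genes these settings called 309, 271, 791 and 254. Of the SMADs that the receptor activates, SMAD3 was at 46.4 ± 1.44 RPKM in the controls and 39.0 ± 3.43 RPKM after CD73 siRNA (SD, n = 3 each), with every knockdown sample below every control, as in 8.07% of all tested genes, and an adjusted p of 0.385 (limma). SMAD2 was at 3.23 ± 0.0884 RPKM in the controls, near SMAD4 in RPKM, with a log2 difference of 0.03. In the annotation SMAD2 has 36366 exon bases against 13123 for SMAD4. It had 1720 to 1878 reads per control sample against 691 to 763 for SMAD4, so similar RPKM need not mean similar transcript levels.

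**Figure D4:**
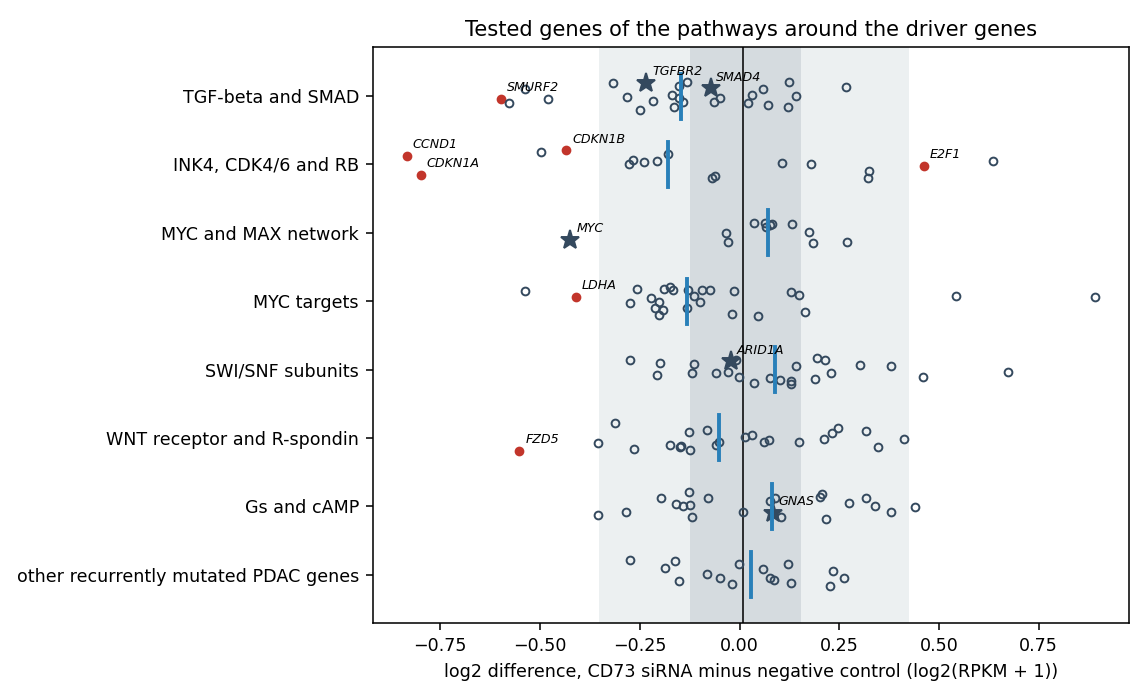
Log2 differences (CD73 siRNA minus negative control, on log2(RPKM + 1)) of the tested genes of 8 lists around the drivers, with stars for drivers, red for an unadjusted p below 0.01 (limma) and a blue line for the list's median. Grey bands hold the middle 50% and 90% of all 12527 tested genes and the black line their median of 0.01. No driver is red, and the medians of the lists run from -0.18 to 0.09.

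The MYC and MAX network list had 12 of 16 genes tested and 0 past an unadjusted p of 0.01, against 3.13% of all genes. MAX, the obligate partner of MYC, was at 5.71 ± 0.117 RPKM in the controls and 6.02 ± 0.304 RPKM after CD73 siRNA (SD, n = 3 each), a log2 difference of 0.06 (95% interval -0.16 to 0.29). The related MYCN and MYCL were at 0.00799 ± 0.0138 and 0.524 ± 0.163 RPKM in the controls (SD, n = 3 each), so MYC had the highest level of its family. With the block, MYC was the 1 gene of this list that passed, against 7.57% of all genes.

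Known MYC targets served as a list of 28 genes, 26 of them tested. Of these, 0 rose and 1 fell, LDHA, the lactate dehydrogenase subunit, against 1.82% and 1.31% of all genes. A negative log2 difference was found in 20 of the 26, and in 6016 of all 12527 genes, with a median of -0.13 against 0.01 over all genes. LDHA was at 135, 164 and 169 RPKM after CD73 siRNA and at 228, 194 and 201 RPKM in the controls, a log2 difference of -0.41 (SE 0.118, adjusted p = 0.307, limma). The block called 3 genes of the list, LDHA and 1 other lower and the nucleolar gene NOLC1 higher, against 7.57% of all genes. NOLC1, at 91.5, 129 and 108 RPKM after CD73 siRNA and at 36.8, 91.6 and 57.5 RPKM in the controls, thus ran against the direction of MYC. The list had 0 called genes without any 1 of CD73 siRNA replicates 1 and 2 and negative control replicates 1 and 3. It had 2 without CD73 siRNA replicate 3, and as many as 3 when negative control replicate 2 was left out. Over all genes the last 2 settings called 271 and 791.

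MYC and MAX bind the E-box CACGTG, which reads the same on both strands. In RefSeq promoters (GRCh38.p14, 250 bases before to 50 after each annotated start) the E-box was found in 12 of 23 MYC targets matched by symbol (52.2%), against 8.77% of 27305 genes overall. The targets were listed because they are known for MYC, so this share describes the list and is no test. A gene with more annotated starts also has more chances of a match. MYC itself had no promoter entry to search. Of the 7 drivers matched, CDKN2A and CDKN2B among them, 1 held it, GNAS, at 1 of its 6 annotated starts. Which GNAS product begins at this start was not determined. The windows of 30 bases below are shown for GNAS, as the driver with an E-box, and for LDHA, as the MYC target that fell. The E-box is in capitals, and each window is written 5′ to 3′ on the forward strand, the strand of both genes.
GNAS (chr20:58852649-58852678): cacgtcttgcgtCACGTGtcccgcaacgca
LDHA, distal (chr11:18394366-18394395): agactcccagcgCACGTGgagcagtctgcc
LDHA, proximal (chr11:18394464-18394493): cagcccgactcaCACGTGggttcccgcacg
A match is a description of letters in a window and no measurement of binding.

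ARID1A belongs to a list of 26 SWI/SNF subunits, of which 24 were tested and 0 passed an unadjusted p of 0.01, against 3.13% of all genes. Its relatives ARID1B and ARID2 were at 2.25 ± 0.186 and 7.53 ± 0.410 RPKM in the controls (SD, n = 3 each), both below ARID1A in RPKM. ARID1B has 44677 exon bases in the annotation against 15928 for ARID1A, so its level may be understated more. ARID2, at 5.48, 6.37 and 6.33 RPKM after CD73 siRNA and at 7.9997, 7.23 and 7.37 RPKM in the controls, had every knockdown sample below every control, a log2 difference of -0.27 and an adjusted p of 0.377 (limma). In the whole list 7 of 24 genes had every knockdown sample above every control and 4 had every one below, against 10.3% and 8.07% of all genes. Of the ATPases that power the complex, SMARCA4 was at 4.67 ± 0.771 RPKM and SMARCA2 at 0.181 ± 0.0529 RPKM in the controls (SD, n = 3 each). The 95% interval of the SMARCA4 difference ran from -0.32 to 0.31. With the block, the accessory subunit genes BCL7B and DPF1 rose, 2 genes of the list against 4.27% of all genes. Leaving out negative control replicate 2 gave 1 called gene in the list and 791 over all genes.

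The list around GNAS held 39 genes of Gs and cAMP signalling, 22 tested and 0 past an unadjusted p of 0.01, against 3.13% of all genes. GNAL, which encodes the other stimulatory alpha subunit, was at 0.455 ± 0.128 RPKM in the controls (SD, n = 3), far below GNAS. ADORA2B, an adenosine receptor that couples to the GNAS protein, was at 19.5 ± 3.71 RPKM in the controls and 16.98 ± 4.09 RPKM after CD73 siRNA (SD, n = 3 each), with overlapping groups. The 2 genes with the smallest p encode regulatory subunits of protein kinase A, the kinase that cAMP activates. PRKAR2A was at 20.1, 19.0 and 21.9 RPKM after CD73 siRNA and at 11.8, 16.6 and 16.3 RPKM in the controls, a log2 difference of 0.44 (SE 0.143, adjusted p = 0.342, limma). PRKAR1A was at 41.8, 37.4 and 35.1 RPKM against 27.0, 32.3 and 30.4 RPKM, a log2 difference of 0.34 (SE 0.111, adjusted p = 0.345, limma). With the block PRKAR2A alone passed an unadjusted p of 0.01, against 7.57% of all genes. Without negative control replicate 2 the list held 1 called gene, and 791 were called over all genes.

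RNF43 has a close relative, ZNRF3, that does the same work. ZNRF3 was at 2.53, 3.31 and 3.81 RPKM after CD73 siRNA and at 4.18, 4.11 and 4.78 RPKM in the controls, so that every knockdown sample lay below every control, as in 8.07% of all genes, with a log2 difference of -0.36 (SE 0.142) and an adjusted p of 0.384 (limma). Of the 37 genes of the WNT receptor and R-spondin list, 23 were tested, 0 rose and 1 fell, against 1.82% and 1.31% of all genes. This was FZD5, a WNT receptor, at 2.50, 2.62 and 2.90 RPKM after CD73 siRNA and at 4.87, 3.72 and 4.62 RPKM in the controls, a log2 difference of -0.55 (SE 0.125, adjusted p = 0.303, limma). LGR4, the R-spondin receptor with the highest level, was at 11.5 ± 2.43 RPKM in the controls (SD, n = 3), and the WNT target AXIN2 was at 0.715 ± 0.267 RPKM (SD, n = 3). The list held 0 called genes without CD73 siRNA replicate 1 or without negative control replicate 3, and 2 without negative control replicate 2. Over all genes these settings called 110, 254 and 791.

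A further 20 genes recurrently mutated in PDAC, some of them also in the lists above, gave 16 tested genes, of which 0 passed an unadjusted p of 0.01, against 3.13% of all genes. Their median log2 difference was 0.03. The smallest p was that of ARID2, followed by RBM10, a splicing regulator, with a log2 difference of 0.23 (SE 0.127, adjusted p = 0.501, limma).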

How the data were processed

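RNA of PANC-1 cells was sequenced in 6 samples, 3 per group, grouped by the sample titles. The authors deposited 1 table per sample of values read here as RPKM. Their processing notes name Bowtie2 2.2.3, HTSeq 0.6.0 and build hg38, without roles. The unit was inferred. Multiplied by merged exon length (GENCODE release 29, GRCh38), 95.1% to 95.2% of values under 1000 reads were whole within 0.02, which also gave reads and library totals. No length was found for 132 genes. Symbols matched 30384 of 30735 identifiers, and no files were identical.

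Genes reaching 1 RPKM in 3 or more samples were compared on log2(RPKM + 1) by limma 3.58.1 (R 4.3.3, eBayes with trend, Benjamini-Hochberg adjustment), which understates changes of low genes. The call was an unadjusted p below 0.01, the study's threshold. Scripts were tested on simulated data. Python 3.11.15 was used for the rest.

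Deviations from group means correlated at 0.20, 0.48 and 0.55 between same-numbered samples across genes, and between -0.44 and -0.01 otherwise. Centring on group means ties these values together, so the negative ones add no separate support. The labels give replicate numbers and state no pairing. The numbers were taken to pair the samples, and the block rests on this assumption.

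Members and gene lists were chosen with earlier results of these data known. Named genes were the drivers, fixed partners, and in each list up to 5 genes past the threshold or else the 2 with the smallest p. Some genes that this rule names are not reported here. Genes named from the fit with the block were chosen after their values were seen. Alternatives were a pseudocount of 0.1, no filter, the block, scaling by median ratio or to a common sum, and each sample left out.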

Additional observations from a re-analysis of the deposited data

How the results depend on the processing

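Each of the 5 tested drivers and NT5E had 11 alternatives. SMAD4, TGFBR2 and NT5E kept direction and side of the threshold in all of them. MYC kept its direction, and passed the threshold with the replicate block at -0.42 and without CD73 siRNA replicate 2. The signs of ARID1A and GNAS turned, ARID1A to 0.0082 with the common-sum scaling. With 1 sample left out, log2 differences ranged from -0.57 to -0.31 for MYC, -0.37 to -0.08 for TGFBR2, -0.13 to -0.01 for SMAD4, -0.056 to 0.017 for ARID1A, -0.011 to 0.18 for GNAS and -1.44 to -0.90 for NT5E. Control levels stayed within 1 SD under median-ratio and common-sum scaling. Leaving out 1 control cannot move these means by as much as 1 SD, so those alternatives could not test this.

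The count of changed genes was 110 to 791 with 1 sample left out (56 to 543 higher, 54 to 248 lower), 948 with the block (535 higher, 413 lower), and 109 lower genes remained in number under common-sum scaling. With the block, list counts were 6 (INK4), 4 (TGF-beta), 1 (MYC and MAX), 3 (MYC targets), 2 (SWI/SNF) and 1 (Gs and cAMP), and MYC targets gave 0 with no filter and with common-sum scaling. With 1 sample left out they were 1 to 2, 0 to 1, 0 to 3, 0 to 1 and 0 to 1 in the same order from TGF-beta on, 1 to 4 for INK4 and 0 to 2 for WNT. The cause of these shifts was not tested. The block changed no other call among the drivers. Depth limited RNF43 and MTAP, which rested on 0 to 10 reads per sample.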
